A study of Caenorhabditis elegans with 2 samples.

Results

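The maternal CCCH zinc finger genes mex-1, mex-5, mex-6, pos-1, pie-1, oma-1 and oma-2 were examined in a chromatin immunoprecipitation of F33H1.4, assayed as a transcription factor per the labels, in the nematode Caenorhabditis elegans. They are 7 of the 19973 protein-coding genes on the nuclear chromosomes and were taken by name. For each gene, every peak summit was collected from 1000 bp upstream of the annotated 5' end to the 3' end. A summit is the base that the authors' peak caller marked as the highest point of an enriched region. The study comprised 1 group of 2 biological replicates. Both were whole young adults, 62.5 hours old, of strain RW12303, whose larvae had been synchronised by starvation at the L1 stage after bleaching. That strain carries st12303[F33H1.4::TY1::EGFP::3xFLAG] II, a CRISPR insertion that fuses a TY1, enhanced green fluorescent protein and 3xFLAG tag to F33H1.4, and chromatin bound by the fusion was recovered with an antibody against green fluorescent protein. No untagged strain, other stage or control library was analysed here.

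The CCCH family is named for zinc-binding fingers built on 3 cysteines and 1 histidine, which in these proteins come as a tandem pair and bind RNA. The mRNAs are made in the adult germline and loaded into oocytes, and the proteins act in the oocyte and early embryo, where they control translation of other maternal mRNAs and separate germline from somatic fates. Their activity is known mainly for control after transcription, through translation, phosphorylation, asymmetric segregation and degradation.

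All 7 genes had a summit upstream of the 5' end in the series list, which was made from both replicates and holds 3250 peaks. They also had one in each replicate's own list, which hold 2219 and 2733 peaks. Of all protein-coding genes, 14.8% had a summit in the same window in the series list, 11.2% in the list of replicate 1, 13.6% in the list of replicate 2 and 10.4% in both replicate lists. The share depended on the chromosome. It was 15.7% on chromosome II (mex-1 and mex-6), 26.6% on III (pie-1), 16.3% on IV (mex-5 and oma-1) and 8.47% on V (pos-1 and oma-2). Peaks were compared by the authors' signal value, whose scale between lists is not stated, so ranks and percentiles were taken within a list and a percentile counts upwards from the weakest peak of the list. The strongest summits of the 7 genes had series signals of 742 to 3665 with a median of 1356, against a median of 163.1 over all peaks in that list. Over the strongest summits of all 2947 genes with one in their window, the median was 237.9. The read depth behind the signals is unknown. In whole animals, binding in a larger share of cells and stronger occupancy per bound cell cannot be told apart. The deposited notes name further inputs without describing them. No control library was analysed here, so recovery of open chromatin and binding by F33H1.4 cannot be told apart either.

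**Figure D1:**
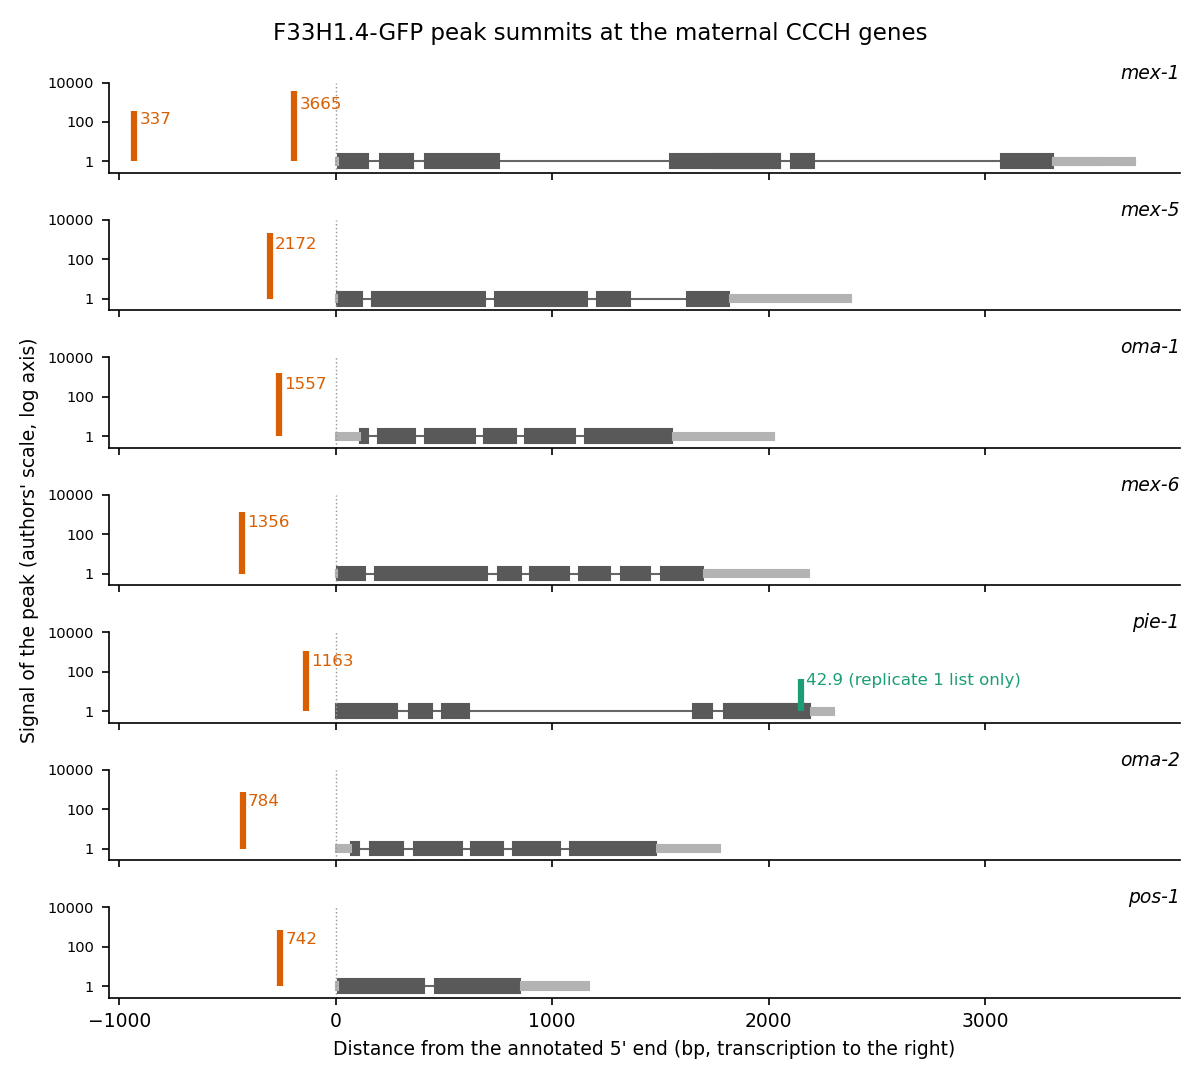
Peak summits along the 7 genes, drawn from the annotated 5' end at 0 in bp with transcription to the right. Dark boxes are coding exons, pale boxes UTRs and lines introns. Orange bars mark summits of the series list and the green bar a summit in the list of replicate 1 only, with bar height and number giving the authors' signal on a log axis. Each gene has its strongest summit 139 to 434 bp upstream, mex-1 has a weaker one at 931 bp upstream, and no series summit lies within a gene.

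MEX-5 and MEX-6 are closely related proteins that accumulate at the anterior of the zygote and drive the other CCCH proteins to the posterior. The gene mex-5 (WBGene00003230, chrIV:13353723-13356104, plus strand, build WBcel235) had 1 summit, at position 13353418, which is 305 bp upstream of its 5' end. Its signal was 871.2 in replicate 1, 1316 in replicate 2 and 2172 in the series list, where it ranked 65 of 3250. The percentile was 97.3 ± 0.2 over the replicates (SD, n = 2). The summit is also 225 bp upstream of rec-8, a meiotic cohesin subunit gene on the other strand, whose 5' end is 530 bp from that of mex-5. The peak cannot be given to either gene on position alone, and by nearest 5' end it belongs to rec-8.

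The gene mex-6 (WBGene00003231, chrII:9524174-9526359, plus strand) also had 1 summit, at 9523740, 434 bp upstream of its 5' end. Its signal was 557.4 in replicate 1, 799.9 in replicate 2 and 1356 in the series list, at rank 197. No other gene's window held this summit. The mex-5 signal was higher than the mex-6 signal in every list, 1.56 times in replicate 1, 1.65 times in replicate 2 and 1.60 times in the series list. The genome sequence around each summit, 60 bases to each side on the plus strand (RefSeq genome of build WBcel235), is shown because it holds the words compared further on. Capitals mark ACCGTA and AAGNCGCA (N is any base) on either strand.
mex-5, chrIV:13353358-13353478: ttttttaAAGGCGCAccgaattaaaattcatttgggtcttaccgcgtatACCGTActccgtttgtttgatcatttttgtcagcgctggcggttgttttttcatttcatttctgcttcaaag
mex-6, chrII:9523680-9523800: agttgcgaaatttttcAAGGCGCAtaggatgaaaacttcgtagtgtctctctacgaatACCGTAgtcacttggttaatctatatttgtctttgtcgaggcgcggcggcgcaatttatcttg

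MEX-1, POS-1 and PIE-1 are CCCH proteins of the germline blastomeres. MEX-1 is needed for germ granule segregation, POS-1 controls translation of maternal mRNAs in posterior cells, and PIE-1 keeps RNA polymerase II transcription off in the germline precursors. The mex-1 gene (WBGene00003228, chrII:11968637-11972330, plus strand) had the strongest summit among the 7, at 11968444, 193 bp upstream of the 5' end. Its signal was 1559 in replicate 1, 2115 in replicate 2 and 3665 in the series list, at rank 15. Its percentile over the replicates was 99.5 ± 0.09 (SD, n = 2), and the series peak reached 7 bp past the 5' end. This summit also lies in the window of W03C9.5, a gene on the other strand, but 900 bp from its 5' end.

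A second mex-1 summit lay at 11967706, 931 bp upstream. Its signal was 102.6 in replicate 1, 241.4 in replicate 2 and 337.3 in the series list, where it ranked 927. It is 162 bp upstream of W03C9.5 and 775 bp upstream of rab-7, a small GTPase gene, so both of those 5' ends are nearer to it than that of mex-1. No other member had a second summit in the series list.

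The pos-1 gene (WBGene00004078, chrV:8414086-8415254, plus strand) had the weakest summit among the 7 in the series list, at 8413830, 256 bp upstream. Its signal was 266.0 in replicate 1, 477.9 in replicate 2 and 742 in the series list, at rank 471. The replicates placed it further apart than any other member, at a percentile of 80.1 ± 5.32 (SD, n = 2). The summit is shared with vha-18, a vacuolar ATPase subunit gene on the other strand, which starts 348 bp away. The 5' ends of pos-1 and vha-18 are 604 bp apart.

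The pie-1 gene (WBGene00004027, chrIII:12426893-12429195, plus strand) had its series summit at 12426754, 139 bp upstream and nearest to the 5' end among the 7. Its signal was 487.2 in replicate 1, 680.6 in replicate 2 and 1163 in the series list, at rank 261. The next gene upstream, tat-1, starts 5175 bp away, and no neighbour's window held the summit. The list of replicate 1 had 1 more pie-1 summit, in a coding exon 2150 bp downstream of the 5' end, with a signal of 42.9 and rank 2137 of 2219. In the unthresholded list of replicate 2 the nearest summit was 2110 bp downstream with a signal of 26, and that peak was not in its thresholded list. The windows around the upstream summits follow, with capitals as before. That of pos-1 held neither word.
mex-1, chrII:11968384-11968504: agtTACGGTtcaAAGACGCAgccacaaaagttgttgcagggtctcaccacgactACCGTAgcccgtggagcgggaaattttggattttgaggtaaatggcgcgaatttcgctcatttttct
pos-1, chrV:8413770-8413890: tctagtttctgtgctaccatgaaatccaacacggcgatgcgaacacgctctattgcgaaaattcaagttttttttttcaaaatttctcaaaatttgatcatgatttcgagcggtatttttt
pie-1, chrIII:12426694-12426814: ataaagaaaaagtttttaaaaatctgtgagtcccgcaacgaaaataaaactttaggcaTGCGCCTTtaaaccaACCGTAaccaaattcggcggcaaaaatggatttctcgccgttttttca

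OMA-1 and OMA-2 act redundantly in oocyte maturation, and in the early embryo they hold the transcription factor TAF-4 in the cytoplasm. The oma-1 gene (WBGene00003864, chrIV:8888976-8890999, plus strand) had 1 summit, at 8888712, 264 bp upstream of its 5' end. Its signal was 627.2 in replicate 1, 938.5 in replicate 2 and 1557 in the series list, at rank 151. The oma-2 gene (WBGene00003865, chrV:8029439-8031214, plus strand) had 1 summit, at 8029008, 431 bp upstream. Its signal was 337.8 in replicate 1, 443.6 in replicate 2 and 784 in the series list, at rank 440. No neighbour's window held either summit. The oma-1 signal was 1.86 times that of oma-2 in replicate 1, 2.12 times in replicate 2 and 1.99 times in the series list.
oma-1, chrIV:8888652-8888772: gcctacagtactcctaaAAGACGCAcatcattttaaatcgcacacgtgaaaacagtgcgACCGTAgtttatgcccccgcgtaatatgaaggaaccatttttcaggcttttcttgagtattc
oma-2, chrV:8028948-8029068: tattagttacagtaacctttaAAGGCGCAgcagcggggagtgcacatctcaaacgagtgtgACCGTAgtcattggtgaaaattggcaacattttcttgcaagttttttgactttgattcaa

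By signal the genes ran mex-1, mex-5, oma-1, mex-6, pie-1, oma-2 and pos-1 in the series list. Replicates 1 and 2 both kept that order down to pie-1, with oma-1 at 1.13 times the mex-6 signal in replicate 1 and 1.17 times in replicate 2. The last pair had no stable order. The oma-2 signal was 1.27 times that of pos-1 in replicate 1 and 0.928 times in replicate 2. The scale of the signal can differ between the replicate lists, so each member's ratio of replicate 2 to replicate 1 was read only against the ratios of all matched peaks. It was 1.31 to 1.80 in the members, with a median of 1.44, against a median of 1.42 and a 5% to 95% range of 0.849 to 2.12 over all 1954 peaks matched between the replicates. The highest member ratio, that of pos-1, stood at the percentile of 85.0 among all pairs. With 2 replicates, differences between neighbours in this order were not tested.

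**Figure D2:**
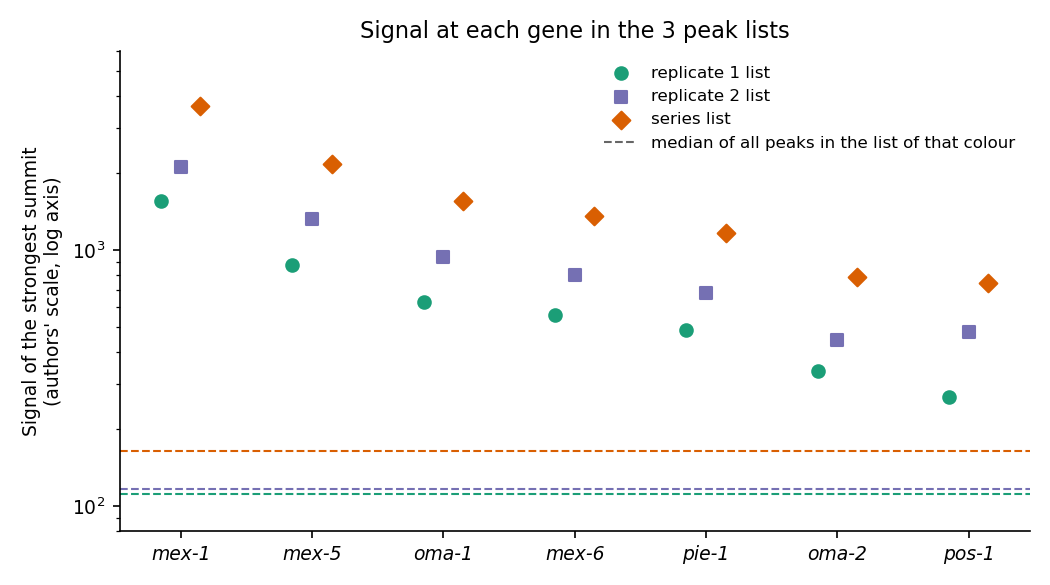
Signal of the strongest summit of each gene in the lists of replicate 1 (circles), replicate 2 (squares) and the series (diamonds), on the authors' scale and a log axis. Dashed lines are the median signal of all peaks in the list of the same colour. Every gene lies above its list's median, and oma-2 and pos-1 change places between the replicates.

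**Figure D3:**
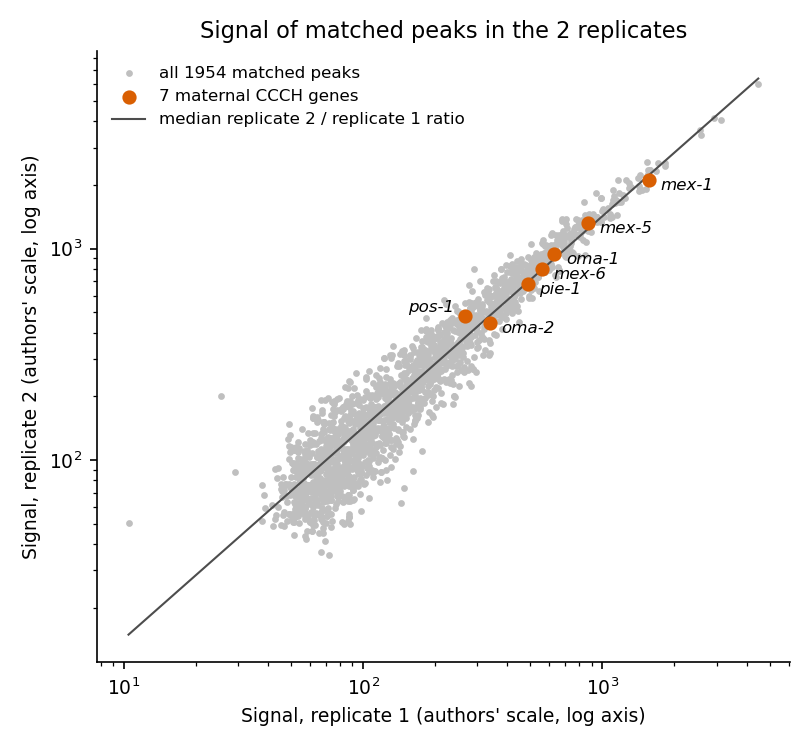
Signal of 1954 peaks matched between replicate 1 (x axis) and replicate 2 (y axis), on the authors' scale and log axes. Grey points are all matched peaks, orange points the 7 genes, and the line is the median ratio of 1.42. The 7 genes lie along the line, with pos-1 above it at a ratio of 1.80.

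Summit positions differed between replicates by 1 to 11 bp, with mex-6 the least tight and oma-2 the tightest. All 7 strongest summits lay outside annotated exons and introns, and the series peaks around them were 326 to 446 bp wide. Distances of this size were common in the list. Over the 2947 genes with a summit, the strongest lay at a median of 179 bp upstream, 75.7% were upstream of the 5' end, and 39.4% fell in the members' range. Of those genes, 21.3% had a strongest signal at or above that of pos-1. Annotated 5' UTRs of mex-1, mex-5, mex-6, pos-1 and pie-1 are 0 to 12 bases long. Worm mRNAs are often trans-spliced, so an annotated 5' end can lie downstream of the true start of transcription and the distances are to the annotation only.

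**Figure D4:**
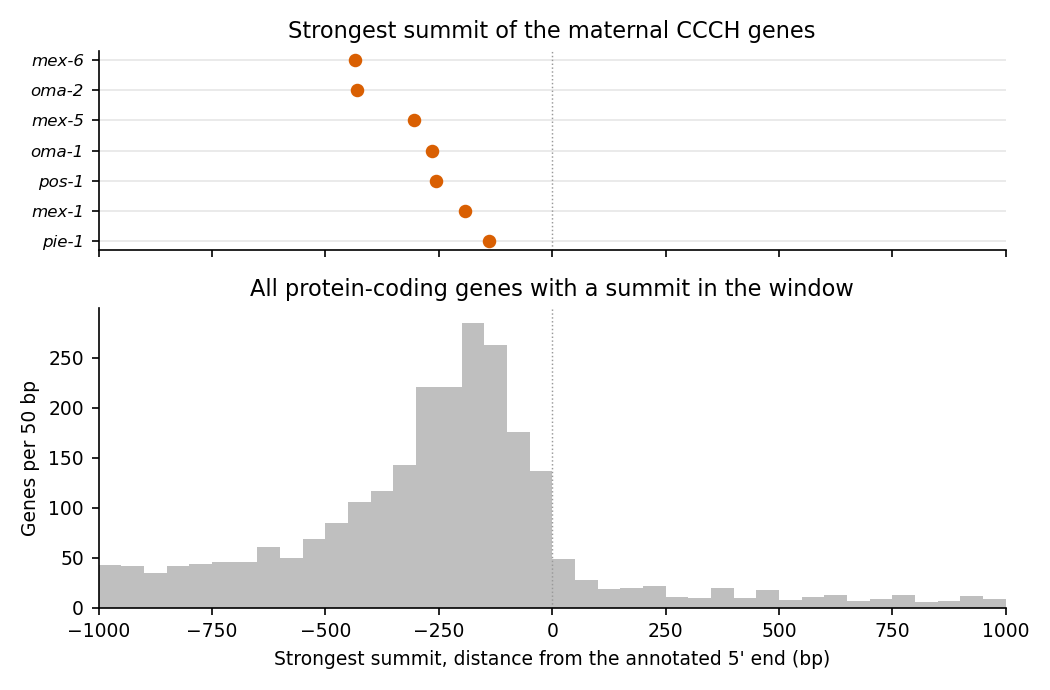
Distance of the strongest summit from the annotated 5' end, in bp, for the 7 genes (top, 1 point each) and for all protein-coding genes with a summit in the window, counted per 50 bp (bottom, cropped at 1000 bp downstream). The 7 points lie between 434 and 139 bp upstream, where the histogram of all genes is also high.

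Within the gene bodies signal was low against the upstream summits, also in the unthresholded list, which holds 51479 regions and so admits weak ones. There, 6 of the 7 genes had a region with its summit in the body, against 53.6% of all protein-coding genes, and pos-1 had none. The strongest body regions of the 6 had signals of 38.4 (oma-2) to 66.9 (pie-1), above that list's median of 25.9. The upstream summit was 17.4 times (pie-1) to 59.2 times (mex-1) as strong as the strongest body region of the same gene in the series list. These ratios varied between the replicates, from 11.4 (pie-1) to 49.9 (mex-1) in replicate 1 and 26.2 (pie-1) to 80.3 (oma-1) in replicate 2. That of oma-1 was 20.2 in replicate 1 and 80.3 in replicate 2. In the unthresholded list of replicate 1, pos-1 had 1 body region with a signal of 23.4, also at a ratio of 11.4, and in that of replicate 2 neither pos-1 nor oma-2 had one.

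Most of the summit windows shared a short sequence. ACCGTA, read on either strand, occurred within 50 bp of the strongest summit in 6 of 7 genes, all but pos-1, against 15.8% of the windows of all 3250 series peaks and 2.89% of windows centred 300 bp away from those summits. It was picked after comparing all 2080 words of 6 bases in the member windows, so its count carries no test, and the list itself is rich in it. Among the peaks ranked 1 to 471, which is as strong as the members, 40.8% of windows held it, and of the weakest 10% of peaks 4.62% did. The next commonest word, TGAAAA, was in 5 member windows and in 20.7% of all windows, but in more of those 300 bp away (36.3%). G and C made up on average 45.1% of the bases in all summit windows and 36.3% in the windows 300 bp away. Word shares in those sets therefore come from windows of unlike base composition. In the 6 genes the centre of ACCGTA lay from 8.5 bp upstream (mex-5) to 15.5 bp downstream (pie-1) of the summit. It read in the direction of the member gene in all 6. Counted by the nearest 5' end, which for the mex-5 summit is that of rec-8, it read with the gene in 5 of 6. By that same rule 55.3% of the 405 promoter matches in all windows read with the nearest gene. Widening the window to 200 bp on each side gave 6 of 7 genes again, against 25.2% of all windows.

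AAGNCGCA, also chosen after the windows were seen, was within 50 bp of the summit in mex-1, mex-6, pie-1, oma-1 and oma-2, and began 53 bp upstream of it in mex-5. Over all peaks 13.7% of windows of that size held it, against 1.32% of windows 300 bp away. Within 100 bp of the summit, 6 of the 7 genes had both words, against 208 of all 3250 peaks and 94 of the 471 strongest.

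In 5 of these 6 genes the words stood at nearly the same distance. Counted from the first base of AAGNCGCA to the first base of ACCGTA in the same direction, it was 42 bp in mex-1, mex-5, mex-6 and oma-1, and 40 bp in oma-2. Over the whole series list there were 167 such pairs in 1 direction, of which 5 were spaced by 42 bp and 1 by 40 bp. Thus 4 of the 5 pairs at 42 bp, and the only pair at 40 bp, were at the CCCH genes. Spacings near these were common in the list, with 54 of the 167 pairs at 40 to 56 bp, those of the CCCH genes included. The commonest arrangements elsewhere had ACCGTA 13 or 14 bp before AAGNCGCA, with 38 pairs, or 52 bp after it, with 15 pairs. In pie-1 the words faced in opposite directions. Counted here from the last base of AAGNCGCA to the first base of ACCGTA, the distance was 15 bp. Of 91 opposite pairs, 10 were spaced by 15 bp and 10 by 16 bp. In mex-1 a second ACCGTA, on the minus strand, lay next to AAGNCGCA. The spacing was noticed in these windows and was not tested.

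**Figure D5:**
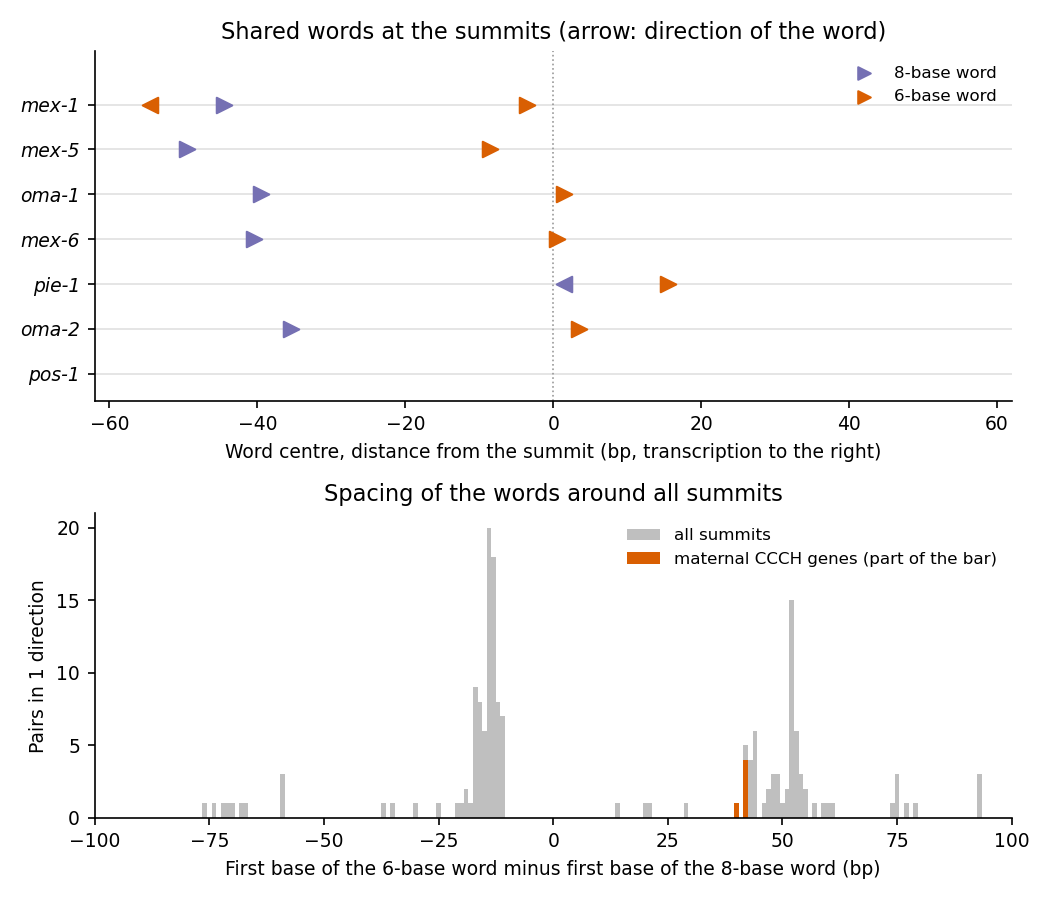
Top, position of the shared words relative to the strongest summit of each gene in bp, with the 8-base word in purple, the 6-base word in orange, and arrows giving the direction of each word. Bottom, number of pairs of the words in 1 direction within 100 bp of all 3250 summits, by the distance in bp between their first bases, with the pairs of the maternal CCCH genes in orange. The 8-base word lies upstream of the 6-base word by 42 bp in mex-1, mex-5, oma-1 and mex-6 and 40 bp in oma-2, and 4 of the 5 pairs at 42 bp are from these genes.

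Around ACCGTA, the windows of mex-1, mex-5 and mex-6 were most alike, as were those of oma-1 and oma-2. The stretches around ACCGTA are set out without gaps to show it, with capitals for bases identical in every line of a set and the coordinates on the plus strand. In the mex set, 15 of 24 bases were identical, 9 of them among the 18 outside the word.
mex-1, chrII:11968422-11968445: GgGTCTcaCcaCGacTACCGTAgc
mex-5, chrIV:13353391-13353414: GgGTCTtaCcgCGtaTACCGTAct
mex-6, chrII:9523722-9523745: GtGTCTctCtaCGaaTACCGTAgt
In the oma set, 21 of 28 bases were identical, 15 of them among the 22 outside the word.
oma-1, chrIV:8888692-8888719: CACAcgTgAAAacAGTGcGACCGTAGTt
oma-2, chrV:8028990-8029017: CACAtcTcAAAcgAGTGtGACCGTAGTc
Over the 20 bases on each side of the word, mex-1, mex-5 and mex-6 shared 21 of 40 bases in every pairing, and oma-1 and oma-2 shared 20. The other pairings of the 6 genes shared 7 to 14. GTCT followed by 10 bases of any kind and then ACCGTA is a pattern chosen after seeing that all 3 mex windows held it. It was in 12 of the 3250 windows (0.369%), those 3 included, and in no window 300 bp away. Its count carries no test. Of 11 motifs of known factors and promoter elements, searched on both strands, each was within 50 bp of the summit in at most 1 of the 7 genes. The CHR-like TTTGAA was in pos-1 and in 23.9% of all windows. The E-box CACGTG was in oma-1 and in 2.40% of all windows. The GA repeat GAGAGA was in mex-6 and in 326 of the 3250 windows. TTTCAG was in oma-1 and in 9.66%, and CCAAT in oma-2 and in 15.7% of all windows. No member window held the E2F-like GGCGGGAA or TTTCGCGC (2.15% and 3.69% of all windows) or the CRE TGACGTCA (13 of all windows). No member window held TATAAA (4.46%) or the GC box CCGCCC (3.75%). None held GATAAG (1.88%). With 200 bp to each side the counts over all windows were larger for all 11 motifs, but those among the members for only 5. The rest kept their member count, such as GAGAGA in 1 against 26.2% of all windows and CACGTG in 1 against 7.08%. TTTGAA was then in 6 of 7 windows against 68.6% of all, TTTCAG in 6 against 54.0%, and CCAAT in 4 against 50.2%. TATAAA was in 3 against 1139 of the 3250 windows, and GATAAG in 1 against 9.72%. A match or its absence describes the letters in these windows only.

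Genes that work with the CCCH proteins were counted in the same way, from lists that are descriptive and chosen with earlier results known. The 4 lists of such partners held 54 genes, of which 32 (59.3%) had a summit in the series list, against 14.8% of all protein-coding genes. Many of these genes are active in the germline, and their expression was not measured here. Among kinases and polarity proteins that place or phosphorylate the CCCH proteins, 9 of 14 had a summit and 8 had one in both replicate lists. The strongest were par-2 (2536) and par-3 (2492), which mark opposite cortical domains of the zygote, plk-1 (1413), a Polo kinase, and par-5 (1371), a 14-3-3 protein, with series signals in brackets here and in the next sentences. The par-2, plk-1 and par-5 summits also lay in windows of neighbouring genes. Not all partner summits were upstream, because the window runs to the 3' end. Those of par-1 and mbk-2 lay 20976 and 20042 bp downstream of the annotated 5' end, within long genes.

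Among nuclear partners of PIE-1 and OMA, 7 of 12 had a summit and 6 had one in both replicate lists. The strongest were taf-4 (1859) and taf-12 (1534), TFIID subunits, ama-1 (1005), the largest RNA polymerase II subunit, and ubc-9 (539.4), the SUMO-conjugating enzyme. The taf-4 summit was shared with pqn-59. Among translational partners and maternal mRNA targets, 15 of 19 had a summit and 12 had one in both replicate lists. The strongest were rnp-8 (1952) and gld-2 (1143), the parts of a cytoplasmic poly(A) polymerase, car-1 (1371), an mRNP protein, and mex-3 (916.9), a KH-domain RNA-binding protein. The rnp-8 and car-1 summits were shared with neighbours. The gld-2 and mex-3 summits lay 140 and 1067 bp downstream of the annotated 5' end. For degradation of CCCH proteins the count was 1 of 9. That gene was lin-23 (342.6), which encodes an F-box protein and shares its summit with a non-coding RNA gene, and zif-1, whose product recruits PIE-1, POS-1 and MEX-1 to a CUL-2 ubiquitin ligase, had no summit.

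Of 13 other tandem CCCH genes found in the annotation, 2 had a summit, T26A8.4 (1760) and ccch-3 (422.0), a share near the 14.8% of all protein-coding genes. The T26A8.4 summit was 74 bp upstream of its 5' end and was shared with pdtf-1. The ccch-3 summit was 939 bp upstream and was shared with his-74, a histone gene. The other 11, among them moe-3, gla-3 and dct-13, had none in the series list.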

How the data were processed

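Peak lists from F33H1.4 chromatin immunoprecipitation in 2 biological replicates were used, sheared by sonication to 200 to 800 bp and placed on build ce11, per the labels. The authors deposited a signal, a score and a summit offset per peak. The deposited score is at least 830 in the thresholded lists. Neither aligner nor caller is given in the sources used here. Nothing gives the read depth.

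Genes were taken from Ensembl release 115 (WBcel235). The RefSeq assembly of that build, whose chromosomes hold every peak, gave the sequence. Coordinates are 1-based. A replicate peak was matched to a series peak by an overlap of at least 1 bp, taking the strongest. Words were counted on both strands of windows reaching 50 bp to each side of a summit. The counting was checked on simulated data. Every member was named, of each partner list up to 4 genes by signal, and every neighbour sharing a member's summit. Members and lists were chosen with earlier results of these data known, and no test was made. Work was done in Python 3.11.15, numpy 2.4.6, pandas 2.3.3 and matplotlib 3.10.9.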

Additional observations from a re-analysis of the deposited data

How the results depend on the processing

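All 7 genes kept a summit under the conservative list, each replicate's list alone, 500 or 2000 bp of upstream sequence, a promoter-only window and the stronger 50% of the series list, and 6 did when a summit was given only to the nearest 5' end, where mex-5 lost its summit to rec-8. All 7 had a summit in both replicate lists also with a reciprocal overlap of 50% or summits within 100 bp. Over all protein-coding genes, the stronger 50% of the list left 1867 genes with a summit, against 2947, because the list is shorter by construction. The other settings gave 2145 to 3462 genes, and 2243 without replicate 2 and 2714 without replicate 1. The genes with a summit in the 4 partner lists and the list of other tandem CCCH genes numbered 24 to 37 over all settings, against 34 of 67. Taking each replicate's own summits, a choice added after seeing the data, left ACCGTA in 6 member windows, and AAGNCGCA in 4 without replicate 2 and 5 without replicate 1. No paired analysis was possible because there was 1 group. With 2 replicates and no stated depth, differences between members of similar signal could not be resolved.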

Other observations

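The arrangements of words seen at the CCCH genes occurred at few other summits, and those are listed here as values, chosen after the windows were seen. The pattern GTCT, 10 bases of any kind and ACCGTA, found at mex-1, mex-5 and mex-6, was also in 9 other windows of the series list. By nearest 5' end these were at hcp-4, a centromere protein gene (signal 4009, rank 10), unc-11 (2083), F18A1.7 (1919), F13D12.5 (1514), gyf-1 (942.9), nop-1 (934.0), aak-1 (659.1), cyp-31A5 (197.3) and Y108F1.5 (97.7). Of the 12 windows in all, 9 ranked within the first 471 peaks. The only pair of AAGNCGCA and ACCGTA spaced by 42 bp outside the CCCH genes was nearest to C01G5.4, at 1721 bp upstream, with a signal of 328.3 and rank 953. At a spacing of 43 bp there were 4 pairs, the strongest nearest to unc-11 (2083). At 44 bp there were 6, the strongest nearest to znf-598 (720.3). None of these was at a gene in the partner lists.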
